A study of Mus musculus with 12 samples.

Results

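The genes of MHC class I antigen presentation were followed in whole lungs of neonatal mice exposed to endotoxin. The 10 members were chosen by symbol: the heavy chains H2-K1 and H2-D1, the light chain B2m, the peptide transporter subunits Tap1 and Tap2, the loading chaperone Tapbp, the inducible proteasome subunits Psmb8 and Psmb9, the trimming peptidase Erap1 and the transactivator Nlrc5. All 10 were found among the 52550 genes of the count table, and all 10 were among the 15885 protein-coding genes that passed the filter on low counts and were tested. The 4 groups held 3 mice each, with 1 RNA sequencing library per mouse. Libraries 3, 4 and 5 were WT PBS, libraries 9, 10 and 11 were WT LPS, libraries 6, 7 and 8 were Adm+/- PBS and libraries 1, 2 and 12 were Adm+/- LPS, and these numbers are used below as replicate numbers. WT mice have both copies of the adrenomedullin gene and Adm+/- mice have lost the function of a single copy in the whole animal. All mice were C57Bl/6J, the Adm+/- line having been backcrossed from 129/SvEv. On postnatal days 3 to 5 they were given 3 daily intraperitoneal injections of Escherichia coli O55:B5 lipopolysaccharide (LPS), a bacterial endotoxin, at 6 mg/kg, or of saline (PBS), and lung tissue was collected on postnatal day 5, 6 h after the final injection.

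Class I molecules carry peptides from inside the cell to its surface, where CD8 T cells and natural killer cells read them. The proteasome cuts proteins into peptides, the TAP transporter moves these into the endoplasmic reticulum, ERAP1 trims them there, and tapasin, the product of Tapbp, helps to load them onto a heavy chain paired with beta-2-microglobulin. Interferons raise the expression of these genes in most tissues, NLRC5 acts on the promoters of several of them, and in the lung they are expressed by epithelium and endothelium as well as by leukocytes.

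Total counts per library ranged from 22382535 to 38062873. Levels are given as CPM, the counts of a gene relative to those on all tested genes after TMM scaling. In WT PBS replicate 5 and Adm+/- PBS replicate 6, counts on Gm26917, a non-coding gene, made up 16.6% and 13.3% of the total, against 5.42% to 7.40% in the other 10 libraries. Skeletal muscle markers summed to 558 to 1628 CPM in WT LPS and to at most 32.1 CPM elsewhere. Squamous epithelium markers summed to 1422 and 2713 CPM in 2 WT LPS libraries, and to 22.9 CPM in the third, within the range of the other groups, which reached 37.4 CPM. Markers of type II pneumocytes, the surfactant-secreting cells of the lung, summed to 11287 to 15211 CPM over the 12 libraries. The libraries labelled Adm+/- did not separate from WT by Adm itself: its log2 fold change was -0.50 in PBS (adjusted p = 0.999) and -0.55 in LPS (adjusted p = 0.480). Adm had only 74 to 252 counts per library. The authors report that they checked the genotype of the Adm+/- mice by genotyping and by RT-PCR for Adm in lung.

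LPS raised B2m and H2-D1 in both genotypes and H2-K1 in Adm+/- lungs, the genes of the class I molecule itself. These calls were sensitive to the test: a test against a log2 fold change of 0.5 in place of 0 left 0 members called in either genotype, where 5.07% and 6.9% of all genes tested were called higher in WT and Adm+/- lungs. A fit of only the compared groups left 0 in WT and 5 in Adm+/- lungs, where 5.16% and 14.7% of all genes tested were called higher. The question was which steps of the pathway respond to LPS in the neonatal lung, and whether loss of a copy of Adm alters that response. In WT lungs 2 of the 10 members, H2-D1 and B2m, were higher with LPS past the threshold, which asked for a log2 fold change beyond 0.5 in size together with an adjusted p under 0.05, and in Adm+/- lungs 3 members, H2-K1, H2-D1 and B2m, were. Over all genes tested, 10.5% were called higher in WT and 12.8% in Adm+/- lungs. No member was called lower in either genotype. All 10 fitted fold changes were above 0 in both genotypes, with a median log2 fold change of 0.62 in WT and 0.69 in Adm+/- lungs, against medians of 0.01 and -0.01 over all genes tested. At an unadjusted p below 0.05 there were 4 and 5 members, where 36.7% and 41.8% of all genes tested passed. Without WT LPS replicate 9, 0 members were called in WT lungs, where 6.25% of all genes tested were called higher, and the adjusted p of B2m was then 0.0656. Of the members in WT lungs only B2m remained called without WT PBS replicate 3 or 4, WT LPS replicate 10 or any 1 of the Adm+/- LPS libraries. The LPS groups lay wholly above the PBS groups for 5 members in WT and 6 in Adm+/- lungs, where 18.3% and 26.6% of all genes tested did.

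**Figure D1:**
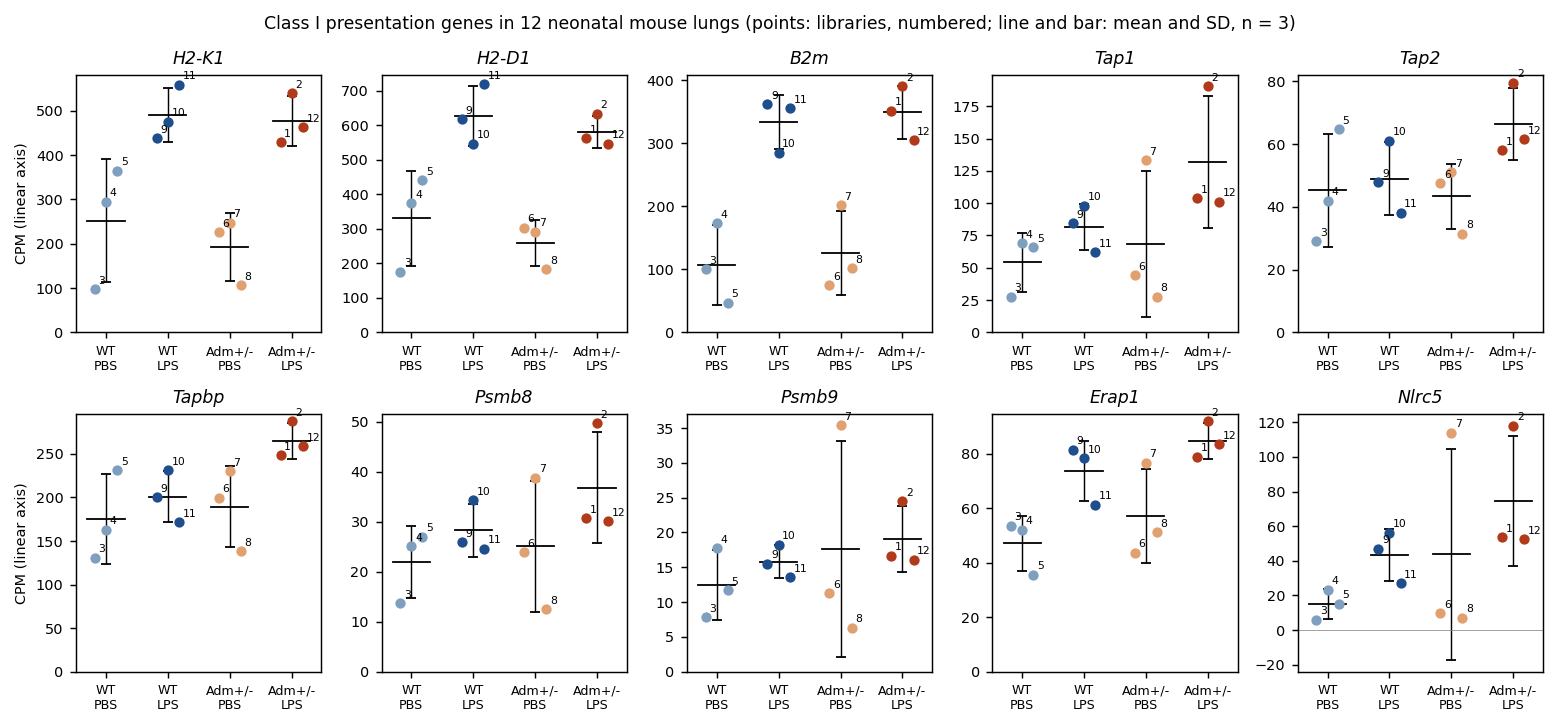
CPM (linear vertical axes, a panel per gene) of the 10 class I genes in the 4 groups, with each library as a numbered point and the mean and SD (n = 3) as a line and bar. H2-K1, H2-D1 and B2m were higher in every LPS library than in any PBS library of the same genotype, and Adm+/- PBS replicate 7 stands above its group for Tap1, Psmb9 and Nlrc5.

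Beta-2-microglobulin, the light chain without which class I molecules do not stay at the cell surface, had the largest fold change among the members that passed. B2m was at 100, 173 and 47.4 CPM in WT PBS replicates 3, 4 and 5 and at 362, 285 and 356 CPM in WT LPS replicates 9, 10 and 11. In Adm+/- lungs it was at 74.5, 201 and 102 CPM in PBS replicates 6, 7 and 8 and at 351, 390 and 305 CPM in LPS replicates 1, 2 and 12. Every LPS library was above every PBS library, also across genotypes. B2m rose by a log2 fold change of 1.64 ± 0.42 (SE) in WT (adjusted p = 0.0192, edgeR's quasi-likelihood test with Benjamini-Hochberg adjustment, as for all adjusted p values here) and of 1.47 ± 0.42 in Adm+/- lungs (adjusted p = 0.0214). The corresponding folds were 3.12 and 2.77.

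H2-D1 encodes a classical heavy chain that presents peptides to CD8 T cells. Its levels were 176, 374 and 442 CPM in WT PBS replicates 3, 4 and 5, and 618, 547 and 720 CPM in WT LPS replicates 9, 10 and 11. The corresponding Adm+/- values were 303, 291 and 183 CPM in PBS replicates 6, 7 and 8, and 562, 634 and 547 CPM in LPS replicates 1, 2 and 12. The groups did not overlap in either genotype. The log2 fold change was 0.93 ± 0.29 (SE) in WT (adjusted p = 0.0403) and 1.16 ± 0.29 in Adm+/- lungs (adjusted p = 0.0104). The call in WT lungs was lost in 9 of 12 fits that each left out 1 library, all but those without WT PBS replicate 5 or Adm+/- PBS replicate 6 or 8, and when all annotated genes were tested. With any of 4 libraries left out (Adm+/- PBS replicate 6 or 8, or Adm+/- LPS replicate 1 or 2), H2-D1 was the only member still called in Adm+/- lungs.

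H2-K1, the other classical heavy chain of these mice, was at 97.6, 295 and 364 CPM in WT PBS replicates 3, 4 and 5 and at 438, 475 and 559 CPM in WT LPS replicates 9, 10 and 11. In Adm+/- lungs it was at 226, 247 and 106 CPM in PBS replicates 6, 7 and 8 and at 429, 539 and 463 CPM in LPS replicates 1, 2 and 12. Here too no PBS library reached an LPS library, but WT PBS spanned a range of 97.6 to 364 CPM. The log2 fold change of 0.96 ± 0.40 (SE) in WT lungs did not pass (adjusted p = 0.109), and that of 1.31 ± 0.41 in Adm+/- lungs did (adjusted p = 0.0311). The call in Adm+/- lungs was lost when any of 5 of its 6 libraries was left out, all but PBS replicate 7. That H2-K1 passed in a single genotype does not separate the genotypes, since the difference between its LPS responses was 0.34 ± 0.57 on the log2 scale (adjusted p = 0.995).

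The heavy chain genes resemble each other and their relatives, which bears on how reads were shared among them. All members but B2m, Erap1 and Nlrc5 lie on chromosome 17, in the major histocompatibility complex, and the 2 heavy chain genes lie toward opposite ends of this set, H2-K1 at chr17:33996017-34000347 on the minus strand and H2-D1 at chr17:35262730-35267499 on the plus strand (mm10, Gencode release M21). The stretch of coding sequence below is the one with the longest identical run, 91 bases, between the pair. It covers 121 bases, from base 723 to 843 of the 1107 coding bases of H2-K1 and from base 732 to 852 of the 1086 of H2-D1, and capitals mark the 3 bases that differ.
H2-K1: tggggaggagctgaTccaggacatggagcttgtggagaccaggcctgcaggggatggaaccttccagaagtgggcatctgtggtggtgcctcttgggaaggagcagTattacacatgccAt
H2-D1: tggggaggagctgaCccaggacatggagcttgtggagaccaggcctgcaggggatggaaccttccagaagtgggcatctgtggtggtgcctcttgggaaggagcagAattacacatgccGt
No stretch of 100 bases of the H2-K1 transcript occurred in another gene, whereas 4.64% of those of H2-D1 occurred in at least 1 of 9 other genes, most often H2-Q1. A read from such a stretch cannot be placed on a single gene, and the authors' setting for such reads is not given in the sources used here.

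The promoters of H2-K1, H2-D1 and B2m are shown next, because these were the members whose windows held a match to the kappa B consensus, the site of the NF-kappa B factors. Each run holds the 250 bases before the start site (RefSeq, GRCm38.p6), 5′ to 3′ on the strand of the gene. H2-K1 is at chr17:34000348-34000597 on the minus strand, H2-D1 at chr17:35262844-35263093 and B2m at chr2:122147437-122147686, both on the plus strand. Capitals mark matches to the kappa B consensus, to the core of the X2 box (TGACG), to the Y box (CCAAT) and to the interferon-stimulated response element, read on either strand, and matches that overlap are joined.
H2-K1: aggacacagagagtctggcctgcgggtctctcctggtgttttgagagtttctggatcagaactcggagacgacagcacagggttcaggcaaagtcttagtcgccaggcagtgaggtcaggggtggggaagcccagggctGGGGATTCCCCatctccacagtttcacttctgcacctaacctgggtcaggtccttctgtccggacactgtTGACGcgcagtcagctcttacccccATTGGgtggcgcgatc
H2-D1: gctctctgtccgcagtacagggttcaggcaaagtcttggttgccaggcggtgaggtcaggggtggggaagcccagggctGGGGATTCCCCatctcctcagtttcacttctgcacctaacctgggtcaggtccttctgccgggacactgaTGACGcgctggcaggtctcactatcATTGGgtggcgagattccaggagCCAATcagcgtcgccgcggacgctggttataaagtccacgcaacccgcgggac
B2m: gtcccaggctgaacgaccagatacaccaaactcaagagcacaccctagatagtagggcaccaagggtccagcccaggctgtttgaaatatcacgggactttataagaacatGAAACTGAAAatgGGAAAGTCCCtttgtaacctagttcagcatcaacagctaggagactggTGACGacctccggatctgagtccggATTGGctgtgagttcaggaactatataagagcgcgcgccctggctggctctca
In H2-K1 and H2-D1 the kappa B match was the same run, GGGGATTCCCC, followed by an X2 core and a Y box nearer to the start. In B2m the kappa B match GGAAAGTCCC lay beside an interferon-stimulated response element, GAAACTGAAA. Promoter windows, which run from 250 bases before the start to 50 after it, were given for 8 members, with none read for Tap2 and Nlrc5. The kappa B consensus was found in 3 of these 8 windows, in 6 of the 10 windows given for other class I heavy chain genes and in 8.46% of all 32851 mouse windows, the Y box in 6 (37.4% of all), the X2 core in 5 (20.8%), the response element in 2, B2m and Erap1 (3.44%), and the interferon-gamma activated site TTCNNNGAA in 1, Psmb8 (8.3%). A match is a description of letters and not a measured site.

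The 2 libraries rich in Gm26917 also set the heavy and light chains apart. Per kilobase of exon, B2m was 116 and 202 CPM per kb in WT PBS replicates 3 and 4 and 55.1 CPM per kb in replicate 5, while the summed heavy chains were at 101, 245 and 295 CPM per kb. The log2 ratio of light to heavy chains was therefore -2.42 in WT PBS replicate 5 and -1.17 in Adm+/- PBS replicate 6. It lay between -0.28 and 0.25 in each of the other 10 libraries. The B2m transcript is 860 bases long with 41.2% G and C, and those of H2-K1 and H2-D1 have 56.3% and 55.9%. Whether base composition played a part in these libraries was not tested. With both libraries left out the same members were called as with all 12, B2m and H2-D1 in WT and H2-K1, H2-D1 and B2m in Adm+/- lungs.

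None of the genes that supply and trim peptides was called in either genotype by edgeR with TMM scaling over all 12 libraries. Other fits called Erap1 and Tap2, and Tap1 and Psmb9 were called in Adm+/- lungs without PBS replicate 7. The products of Tap1 and Tap2 together form the peptide transporter. Tap1 was at 27.5, 69.1 and 65.8 CPM in WT PBS replicates 3, 4 and 5 and at 84.4, 97.9 and 62.2 CPM in WT LPS replicates 9, 10 and 11. In Adm+/- PBS replicates 6, 7 and 8 it was at 44.0, 133 and 27.7 CPM, and in Adm+/- LPS replicates 1, 2 and 12 at 104, 191 and 101 CPM. Adm+/- PBS replicate 7 lay above 2 of the 3 Adm+/- LPS libraries. The log2 fold changes were 0.59 ± 0.52 (SE) in WT (adjusted p = 0.433) and 0.95 ± 0.52 in Adm+/- lungs (adjusted p = 0.191).

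Tap2 had mean levels of 45.2 ± 18.1 CPM in WT PBS and 49.0 ± 11.5 in WT LPS, and of 43.4 ± 10.4 CPM in Adm+/- PBS and 66.3 ± 11.6 in Adm+/- LPS (SD, n = 3). In Adm+/- lungs the 3 LPS libraries, at 58.0 to 79.5 CPM, lay above the 3 PBS libraries, at 31.5 to 51.0 CPM, and in WT lungs the groups overlapped. Its log2 fold changes of 0.12 and 0.61 did not pass (adjusted p = 0.787 and 0.122), and it was called in Adm+/- lungs by a fit of only the compared groups and without WT PBS replicate 5. Tapbp, the tapasin gene, showed the same arrangement: 175 ± 51.5 and 201 ± 29.6 CPM in WT PBS and LPS, with overlap, and 189 ± 46.7 and 265 ± 20.4 CPM in Adm+/- PBS and LPS, without overlap. Its log2 fold changes of 0.20 and 0.49 did not pass either (adjusted p = 0.532 and 0.115).

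Erap1, the aminopeptidase that trims peptides to the length that class I molecules bind, was called or missed the threshold depending on the fit. It was at 53.6, 52.1 and 35.6 CPM in WT PBS replicates 3, 4 and 5 and at 81.4, 78.3 and 61.2 CPM in WT LPS replicates 9, 10 and 11. In Adm+/- lungs it was at 43.6, 76.7 and 51.1 CPM in PBS replicates 6, 7 and 8 and at 78.8, 91.8 and 83.4 CPM in LPS replicates 1, 2 and 12. All LPS libraries lay above the PBS libraries of their genotype, in Adm+/- lungs by only 76.7 against 78.8 CPM. The log2 fold change was 0.64 ± 0.21 (SE) in WT (adjusted p = 0.0510) and 0.57 ± 0.21 in Adm+/- lungs (adjusted p = 0.0625), and so was not called. DESeq2 called Erap1 higher in both genotypes, RLE size factors in WT lungs, and limma-voom and a fit of only the compared groups in Adm+/- lungs. Its exons share 834 bases with Cast on the opposite strand, 11.5% of its exon length. Larger shares of exon length lay opposite a non-coding gene for Tapbp (24.9%, Gm19412), Psmb8 (14.7%, Gm20496) and Tap2 (14.1%, Gm15821). The strand setting of the counting is not given in the sources used here, so reads from these overlaps cannot be assigned to 1 strand with certainty.

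Psmb8 and Psmb9 encode catalytic subunits of the immunoproteasome. Per kilobase of all annotated exons, Psmb9 was among the 2 members of lowest level in every group. This rank depends on the length used, 3660 bases of exon against 1352 in its transcript with the longest coding sequence. Psmb8 averaged 21.9 ± 7.16 CPM in WT PBS and 28.2 ± 5.25 in WT LPS, and 25.1 ± 13.2 CPM in Adm+/- PBS and 36.8 ± 11.1 in Adm+/- LPS (SD, n = 3). Its log2 fold changes were 0.37 (adjusted p = 0.499) and 0.55 (adjusted p = 0.286). Psmb9 was at 7.84, 17.8 and 11.7 CPM in WT PBS replicates 3, 4 and 5 and at 15.5, 18.3 and 13.6 CPM in WT LPS replicates 9, 10 and 11. In Adm+/- PBS replicates 6, 7 and 8 it was at 11.3, 35.4 and 6.32 CPM, and in Adm+/- LPS replicates 1, 2 and 12 at 16.7, 24.5 and 16.1 CPM. Its highest value of all 12 libraries was thus in a PBS library, replicate 7, and its log2 fold changes of 0.35 and 0.11 did not pass (adjusted p = 0.649 and 0.898).

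Psmb8 and Psmb9 take the place of the constitutive catalytic subunits Psmb5 and Psmb6 when the immunoproteasome is assembled, and Psmb10 that of Psmb7. The log2 ratio of inducible to constitutive counts within a library does not depend on the scaling between libraries. For Psmb8 over Psmb5 it was -1.70, -0.96 and -1.41 in WT PBS replicates 3, 4 and 5, and -0.74, -0.50 and -0.79 in WT LPS replicates 9, 10 and 11. In Adm+/- lungs it was -1.62, -0.44 and -1.84 in PBS replicates 6, 7 and 8, and -0.60, 0.10 and -0.65 in LPS replicates 1, 2 and 12. All WT LPS libraries exceeded all WT PBS libraries, whereas Adm+/- PBS replicate 7 lay above 2 Adm+/- LPS libraries. The LPS effect averaged over genotypes was 0.80 on the log2 scale (p = 0.02, adjusted p = 0.06 over the 3 pairs, two-sided exact permutation test over 400 assignments of treatment within genotype, in which 0.005 is the smallest p possible). For Psmb9 over Psmb6 the effect was 0.58 (p = 0.19, adjusted p = 0.285, same exact test) and for Psmb10 over Psmb7 0.28 (p = 0.495, adjusted p = 0.495, same exact test). The LPS effects on these ratios differed between genotypes by 0.23, 0.01 and 0.37 on the log2 scale (adjusted p = 0.985 for each, exact permutation of genotype within treatment). Without Adm+/- PBS replicate 7 the LPS effect was 1.02 for Psmb8 over Psmb5 and 0.93 for Psmb9 over Psmb6. Both then had an adjusted p below 0.05 in the same exact test with fewer assignments. Replicate 7 was singled out for its high values in this set, so these passes carry no separate support.

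**Figure D2:**
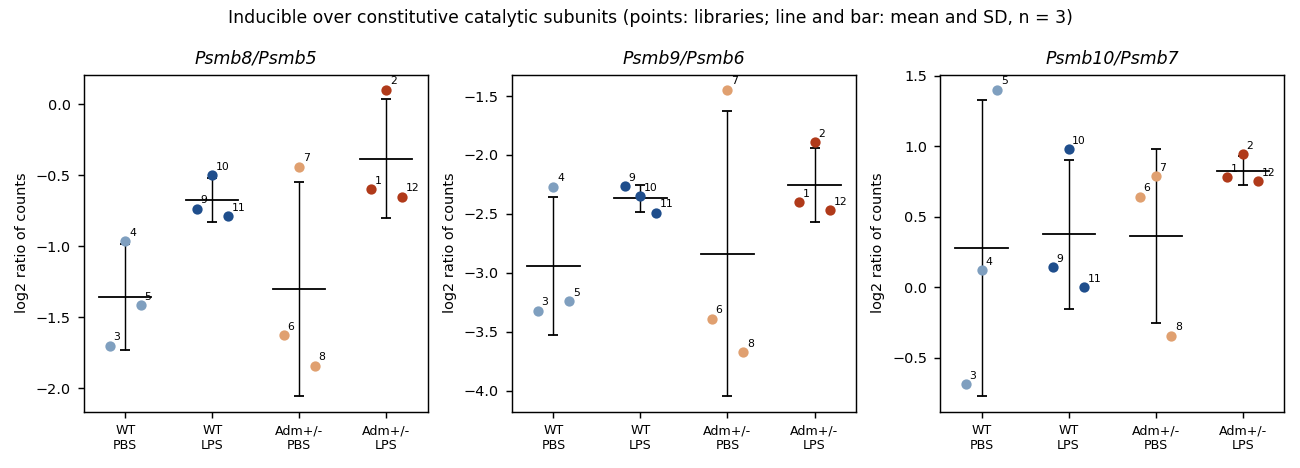
Log2 ratio of the counts of each inducible catalytic subunit to those of its constitutive counterpart (vertical axes) in the 4 groups, with libraries as numbered points and the mean and SD (n = 3) as a line and bar. Adm+/- PBS replicate 7 lies at -0.44 for Psmb8/Psmb5 and at -1.45 for Psmb9/Psmb6, above the other 2 Adm+/- PBS libraries.

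Psmb9 and Tap1 lie head to head on chromosome 17, Psmb9 at chr17:34181987-34187764 on the minus strand and Tap1 at chr17:34187553-34197225 on the plus strand, and their exons share 212 bases on opposite strands. The 225 bases between their RefSeq starts, chr17:34187331-34187555 on the plus strand of GRCm38.p6, are shown because both genes are read outward from them, with a Y box and an X2 core in capitals.
Psmb9 and Tap1: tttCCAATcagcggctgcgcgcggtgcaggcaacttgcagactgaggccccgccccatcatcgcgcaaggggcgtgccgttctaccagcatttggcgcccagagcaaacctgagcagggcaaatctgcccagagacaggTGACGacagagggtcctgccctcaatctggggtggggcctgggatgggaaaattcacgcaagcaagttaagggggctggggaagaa
No kappa B consensus and no interferon-stimulated response element was found in the promoter window of either gene. Psmb8 follows Tap1 at chr17:34197721-34201454 and Tap2 lies beyond it at chr17:34203527-34216321, both on the plus strand, and Tapbp lies apart at chr17:33915899-33929292 on the same strand. Erap1 is at chr13:74639568-74693201, B2m at chr2:122147686-122153083 and Nlrc5 at chr8:94434356-94527272, each on the plus strand.

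Nlrc5, the transactivator of class I genes, was the most variable member. It was at 5.90, 23.2 and 15.3 CPM in WT PBS replicates 3, 4 and 5 and at 46.9, 56.3 and 27.0 CPM in WT LPS replicates 9, 10 and 11. In Adm+/- PBS replicates 6, 7 and 8 it was at 9.89, 114 and 7.16 CPM, and in Adm+/- LPS replicates 1, 2 and 12 at 53.7, 118 and 52.6 CPM. The WT groups did not overlap, and in Adm+/- PBS a single library was near the highest LPS value while the other 2 were below all LPS libraries. The log2 fold changes were 1.56 ± 0.89 (SE) in WT (adjusted p = 0.228) and 0.77 ± 0.86 in Adm+/- lungs (adjusted p = 0.536). These errors are the widest among the members.

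Adm+/- PBS replicate 7 was high for most of the set. It was the highest library of its group for 9 of the 10 members, where it was so for 26.7% of all genes tested. It lay above the lowest Adm+/- LPS library for 4 members and above the highest for 1, Psmb9, where 39.9% of all genes tested lay above the highest. This was not particular to replicate 7. WT PBS replicates 4 and 5 each lay above the lowest WT LPS library for 4 members. Replicate 5 lay above the highest for 2, Tap2 and Tapbp (39.6% of all genes tested). The share of all genes above the lowest LPS library was not counted, and is at least the share above the highest. Averaged over the members, log2 CPM relative to the mean of the 12 libraries was 0.45 in Adm+/- PBS replicate 7. It was -0.56 and -1.08 in Adm+/- PBS replicates 6 and 8. The 3 Adm+/- LPS libraries were at 0.45, 0.93 and 0.44. The library was also the highest of its group for 8 of the 11 other class I heavy chain genes tested and 3 of the 3 other inducible proteasome genes. It was so for 2 of the 7 tested genes of the interferon inputs. It held 5 counts of Ifng, the interferon-gamma gene, against 0 to 2 in the other 11 libraries, too few to compare. Markers of natural killer cells, which make interferon-gamma, summed to 2.70 to 3.37 CPM over the 3 Adm+/- PBS libraries and those of all leukocytes to 198 to 267 CPM. The part of cell composition in the values of replicate 7 was not tested.

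**Figure D3:**
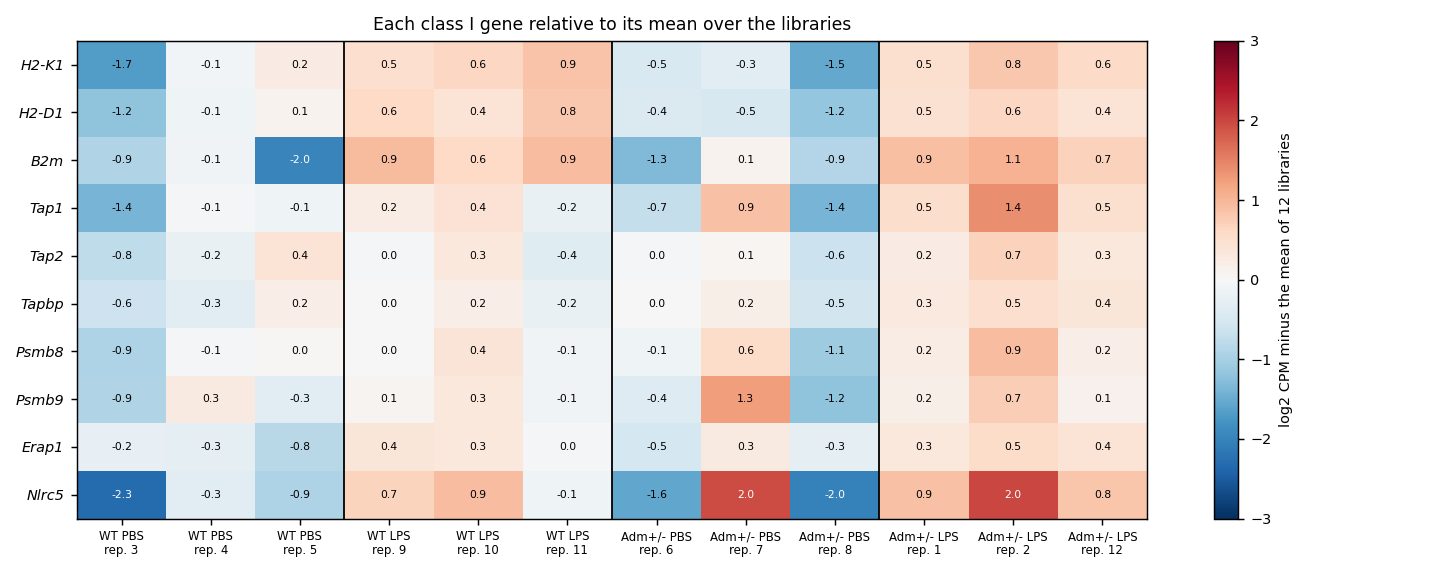
Log2 CPM of each class I gene (rows) in each library (columns), minus its mean over the 12 libraries, with the value printed in each cell and vertical lines between the groups. WT PBS replicate 3 and Adm+/- PBS replicate 8 are low for nearly all genes, and Adm+/- PBS replicate 7 resembles the LPS libraries for Tap1, Psmb9 and Nlrc5.

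The response in Adm+/- lungs depended on this library. Without it 7 members were called higher with LPS, H2-K1, H2-D1, B2m, Tap1, Psmb9, Erap1 and Nlrc5, where 11.2% of all genes tested were. The log2 fold change of Nlrc5 became 3.14 (adjusted p = 0.00508), that of Tap1 1.88 (adjusted p = 0.0116) and that of Psmb9 1.12 (adjusted p = 0.0460). In WT lungs the same fit, in which the 4 groups share an estimate of the spread, called B2m, Erap1 and Nlrc5, where 9.76% of all genes tested were called higher. The labels give no reason to leave out replicate 7. It was singled out after its values had been seen.

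**Figure D4:**
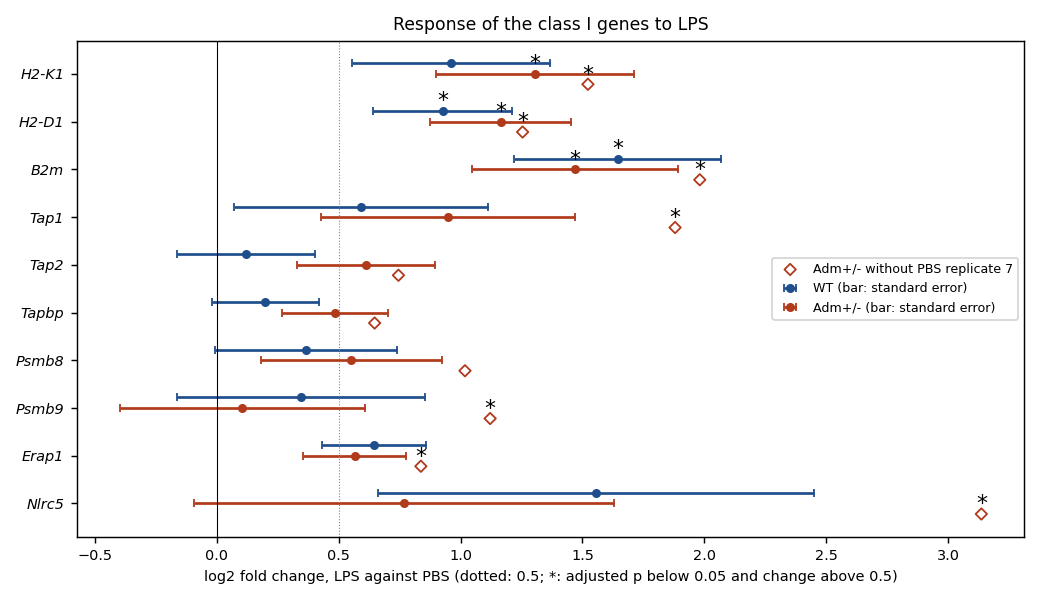
Log2 fold change of each class I gene, LPS against PBS (horizontal axis), in WT and Adm+/- lungs with standard errors, and in Adm+/- lungs without PBS replicate 7 as open diamonds, with asterisks at values past the threshold. H2-D1 and B2m pass in both genotypes, and Nlrc5 moves from 0.77 to 3.14 in Adm+/- lungs when replicate 7 is left out.

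Low libraries were also found in both PBS groups. WT PBS replicate 3 was the lowest of its group for 8 members (35.8% of all genes tested) and Adm+/- PBS replicate 8 for 8 members (28.9%). The median SD of the members was higher among PBS lungs than that of all genes. It was, as the SD of log2 CPM, 0.65 in WT PBS and 0.70 in Adm+/- PBS, against 0.29 and 0.19 over all genes tested, and all 10 members were above that figure in both groups. In the LPS groups the median SD of the members was 0.22 and 0.21, against 0.17 and 0.12 over all genes tested. In Adm+/- LPS the highest library was replicate 2 for all 10 members, where it was the highest for 36.7% of all genes tested.

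The members kept much the same order of level in every group. Levels are in CPM per kilobase of all annotated exons of a gene, so the order depends on that length. It was 860 bases for B2m, 2579 for H2-D1 and 2938 for H2-K1. The transcripts with the longest coding sequence had 860, 2102 and 1619 bases. B2m was at 389 ± 49.9 in WT LPS and 406 ± 49.5 in Adm+/- LPS (SD, n = 3). It was followed by H2-D1 at 244 and 225, H2-K1 at 167 and 162 and Tapbp at 55.4 and 73.0 (means). On exon length the ranges of these 4 neighbours did not overlap within either LPS group. On transcript length those of H2-D1 and H2-K1 would overlap in both. In the PBS groups the ranges of B2m, H2-D1, H2-K1 and Tapbp each overlapped that of the next, with H2-D1 first in WT PBS at 128 CPM per kb and B2m first in Adm+/- PBS at 146 CPM per kb. The other 6 members were lower than Tapbp in all groups without overlap, from Tap1 at 24.1 CPM per kb in Adm+/- LPS down to Nlrc5 at 1.75 CPM per kb in WT PBS, and most of them overlapped their neighbours.

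No difference between genotypes passed the test for any member. No member was called in the difference between the LPS responses, where 0.145% of all genes tested were called, all of them lower in Adm+/-. The adjusted p ranged from 0.917 to 0.996 and no member had an unadjusted p below 0.05, where 7.85% of all genes did. The estimates ran from -0.79 ± 1.23 (SE) for Nlrc5 to 0.49 ± 0.40 for Tap2 on the log2 scale, and the standard errors of the 10 members ran from 0.30 to 1.23, so that a member with no call is not shown to respond alike in both genotypes. Among PBS lungs no member was called between genotypes, nor was any gene tested (0%), and no member had an unadjusted p below 0.05 (2.17% of all genes). The largest estimate, 1.57 ± 0.89 for Nlrc5 (adjusted p = 0.999), became -0.80 without Adm+/- PBS replicate 7.

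Among LPS lungs no member was called between genotypes either, where 2.05% of all genes tested were, and no member had an unadjusted p below 0.05 (14.3% of all genes). Fitted values were higher in Adm+/- LPS for 8 members and lower for the heavy chains H2-K1 and H2-D1, with a median log2 fold change of 0.33. Tap1 was at 62.2 to 97.9 CPM in WT LPS and 101 to 191 CPM in Adm+/- LPS, without overlap, and had a log2 fold change of 0.69 ± 0.52 (adjusted p = 0.651). Tapbp was at 172 to 231 CPM in WT LPS and 248.5 to 288 CPM in Adm+/- LPS, also without overlap, and differed by 0.40 ± 0.22 on the log2 scale (adjusted p = 0.467). Such separation upward was found for 12.2% of all genes tested. DESeq2 and limma-voom called no member in these 3 comparisons either.

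Other genes of the pathway were taken from a list of 65, of which 58 were tested. In WT lungs 7 were called higher and 4 lower with LPS, and in Adm+/- lungs 10 higher and 6 lower, against 10.5% higher and 7.09% lower, and 12.8% higher and 12.2% lower, of all genes tested. The 11 calls in WT lungs fell to 7 without WT LPS replicate 9, and to 3 under the test against 0.5 or with only the compared groups in the fit. The 16 calls in Adm+/- lungs fell to 10 under the test against 0.5. Calls over all genes tested fell too. In WT lungs they went from 2791 to 1443 without WT LPS replicate 9, 1001 under the test against 0.5 and 1152 with only the compared groups. In Adm+/- lungs they went from 3968 to 1695 under the test against 0.5. No gene of the list was called by edgeR in the difference between the responses or between genotypes in PBS or LPS. In these, 4, 0 and 7 listed genes had an unadjusted p below 0.05, where 7.85%, 2.17% and 14.3% of all genes tested did. DESeq2 called 0, 0 and 2 listed genes, where it called 168, 0 and 803 of 15885 genes tested. The 7 that were not tested were H2-T10, H2-M2, Ifng, Ifnb1, Klra4, Klra7 and Klra8, and all of these but H2-T10 had at most 7 counts in any library.

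The other class I heavy chains, encoded in the Q, T and M regions, moved in both directions. Called lower in both genotypes were H2-Q2 and H2-T3, and H2-Q1 was called lower in Adm+/- lungs. H2-Q4 and H2-Q6 were called higher in Adm+/- lungs. H2-Q6 was at 2.64, 47.6 and 49.4 CPM in WT PBS replicates 3, 4 and 5 and at 110, 111 and 85.0 CPM in WT LPS replicates 9, 10 and 11. In Adm+/- lungs it was at 22.5, 27.8 and 3.90 CPM in PBS replicates 6, 7 and 8 and at 105, 165 and 114 CPM in LPS replicates 1, 2 and 12. The libraries lowest for it, WT PBS replicate 3 and Adm+/- PBS replicate 8, were those lowest for most members. Its log2 fold change was 1.62 ± 0.80 (SE) in WT (adjusted p = 0.163) and 2.82 ± 0.83 in Adm+/- lungs (adjusted p = 0.0246). H2-Q7 had log2 fold changes of 1.08 and 1.88 that did not pass (adjusted p = 0.285 and 0.0686). H2-Q6 and H2-Q7 are close relatives, and the share of reads that each took from the other is uncertain. H2-T23, which encodes the peptide-presenting ligand of a natural killer receptor, had log2 fold changes of 0.32 and 0.13 (adjusted p = 0.453 and 0.778).

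None of the 4 partners of B2m outside this family was called higher. Cd1d1, which presents lipids to natural killer T cells, was called lower in both genotypes, at -0.77 in WT (adjusted p = 0.00792) and -1.09 in Adm+/- lungs (adjusted p = 0.000653) on the log2 scale. Fcgrt, the neonatal receptor for IgG, had log2 fold changes of -0.54 and -0.58 (adjusted p = 0.0828 and 0.0512), and Mr1 and Hfe were not called. In the loading complex Calr, the chaperone calreticulin, was called lower in WT lungs at -0.61 (adjusted p = 0.0280), and none of Canx, Pdia3, Uggt1 and Tapbpl was called in either genotype. No proteasome gene of the list was called, whether inducible (0 of 3) or constitutive (0 of 5). Among 6 other peptidases Lnpep was called higher in WT lungs at 0.60 (adjusted p = 0.0262) and Blmh lower in Adm+/- lungs at -0.55 (adjusted p = 0.000758).

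Receptor and kinase genes of interferon signalling were called higher in both genotypes. Of 7 tested genes, 4 were called higher in WT lungs and 5 in Adm+/- lungs, where 10.5% and 12.8% of all genes tested were, and none lower. The 2 chains of the interferon-gamma receptor, Ifngr1 and Ifngr2, and the kinases Jak1 and Jak2 were called in both. On the log2 scale Ifngr1 rose by 0.84 in WT (adjusted p = 0.00157) and 1.02 in Adm+/- lungs (adjusted p = 0.000260). Jak2 rose by 0.68 (adjusted p = 0.00758) and 1.21 (adjusted p = 0.000171), and Jak1 by 0.51 (adjusted p = 0.0226) and 0.98 (adjusted p = 0.000384), in the same order. Ifnar2, a chain of the type I interferon receptor, was called in Adm+/- lungs. The interferon genes of the list themselves were at the limit of detection, with at most 5 counts of Ifng and 0 of Ifnb1 in any library.

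Of 12 transcription factor genes, Irf2, a regulator of interferon-responsive genes, was called higher in both genotypes, by 0.60 in WT (adjusted p = 0.0192) and 0.88 in Adm+/- lungs (adjusted p = 0.00163) on the log2 scale. Stat2, which carries type I interferon signals to the nucleus, was called higher in Adm+/- lungs, and Nfya, a subunit of the factor that binds the Y box, lower there. Irf1 had log2 fold changes of 0.20 and 0.72 (adjusted p = 0.725 and 0.172). The partners of NLRC5 at class I promoters, Rfx5, Rfxank and Rfxap, were not called in either genotype. Among 5 tested receptors for class I molecules, Pirb, an inhibitory receptor of myeloid cells, rose by 3.02 in WT (adjusted p = 0.000120) and 3.23 in Adm+/- lungs (adjusted p = 6.4e-05) on the log2 scale, and Cd8a, Cd8b1, Klrd1 and Klrc1 were not called.

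**Figure D5:**
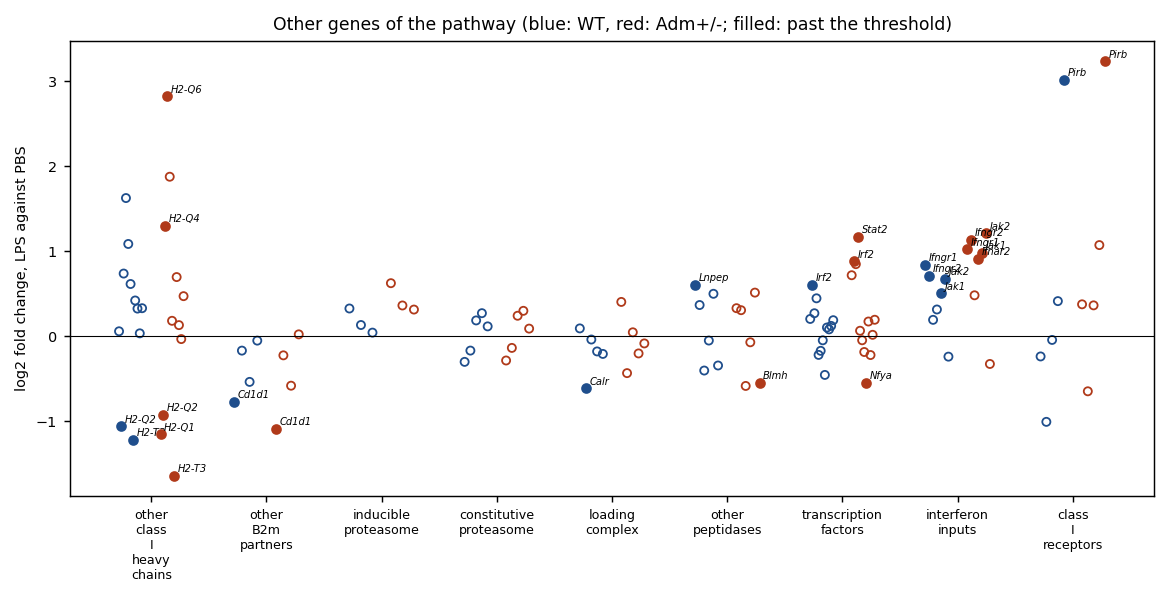
Log2 fold change, LPS against PBS (vertical axis), of the 58 other tested genes of the pathway by role (horizontal axis), in WT (blue) and Adm+/- lungs (red), filled and named where past the threshold. The interferon inputs hold 4 called genes in WT and 5 in Adm+/- lungs, and Pirb lies highest at 3.02 and 3.23.

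Neutrophil markers and most monocyte and macrophage markers were higher with LPS beside the class I genes, while natural killer and dendritic cell markers were mixed or lower. Over all genes tested, 10.5% were called higher and 7.09% lower in WT lungs, and 12.8% higher and 12.2% lower in Adm+/- lungs. Neutrophil markers summed to 25.6 to 117 CPM in WT PBS and 1021 to 1870 CPM in WT LPS. In Adm+/- PBS and LPS they summed to 24.6 to 40.1 and 1043 to 1280 CPM. In WT and Adm+/- lungs 5 of 6 and 6 of 6 of these genes were called higher. Monocyte and macrophage markers summed to 134 to 163 and 265 to 498 CPM in WT and to 124 to 141 and 240 to 339 CPM in Adm+/- lungs. Of these, 5 of 6 and 4 of 6 were called higher, and 1 was fitted lower in Adm+/- lungs, at -0.60 on the log2 scale. Markers of all leukocytes went from 237 to 256 CPM up to 439 to 629 CPM in WT and from 198 to 267 CPM up to 434 to 510 CPM in Adm+/- lungs. Natural killer cell markers summed to 3.18 to 3.69 and 5.26 to 8.63 CPM in WT PBS and LPS and to 2.70 to 3.37 and 5.27 to 10.8 CPM in Adm+/- lungs, with 2 of 5 and 3 of 5 tested genes called higher. Fitted lower were 2 of these 5 in WT, where the median log2 fold change was 0.12, and 1 in Adm+/- lungs. Dendritic cell markers summed to 89.6 to 115 and 91.9 to 106 CPM in WT PBS and LPS and to 93.3 to 115 and 83.4 to 101 CPM in Adm+/- lungs. Of 5 tested, 4 and 5 were fitted lower, with 1 called lower in each genotype. T cell markers summed to 13.3 to 16.8 and 9.74 to 12.1 CPM in WT and to 13.2 to 17.1 and 9.37 to 11.1 CPM in Adm+/- lungs, with 0 of 5 and 2 of 5 tested genes called lower. Endothelial markers summed to 2987 to 3741 and 2516 to 2641 CPM in WT PBS and LPS, and to 3143 to 3548 and 2766 to 3042 CPM in Adm+/- lungs. In bulk tissue a change in the number of cells of a type and a change in RNA per cell cannot be told apart, and the part of leukocyte number in the class I values was not tested. Of the natural killer and neutrophil lists, Klre1 and Ly6g were at 0 counts in 2 libraries each. Of the skeletal muscle list Myh4 was at 0 in 5 libraries, and of the squamous list Sprr3 was at 0 in 7, Tmprss11b in 6, and Krt5 and Krt13 in 2 each. No other marker of these cell type lists was at 0 in any library.

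The genes whose pattern was most like that of the members were found by the smallest root mean square difference, over the 12 libraries, between their centred log2 CPM and the mean of the members. They were Tnfrsf14 (0.27), H2-T22 (0.27), 9930111J21Rik1 (0.28), Wars (0.28), Lgals3bp (0.28), Il2rb (0.28), Parp10 (0.29) and Gm12216 (0.29), against a median of 0.68 over 15875 genes. Among the members themselves Psmb8 lay nearest to the mean, at 0.23, and Nlrc5 farthest, at 0.81. Since these genes were chosen on the same 12 libraries, their levels and calls there carry no separate information about the members. These libraries share the depth and composition described above, and the likeness is a description across them.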

How the data were processed

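Whole-lung RNA was sequenced in 12 mice, 3 per group, with groups and replicate (library) numbers taken from the sample labels. The authors trimmed reads with Trim Galore, aligned them to mm10 with HISAT2 and obtained a count per Gencode gene with featureCounts. The deposited values are raw counts, neither normalized nor filtered. The kit is directional, and the strand option, the Gencode release and the handling of reads with several matches are not given in the sources used here. Total counts were 22382535 to 38062873 per library (median 28494877). Reads carry no molecular identifiers, so counts give counting precision only.

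Protein-coding genes (21950) past filterByExpr (15885) were scaled by TMM and tested with edgeR 4.0.16 in R 4.3.3 (glmQLFit and glmQLFTest, 1 coefficient per group over all 12 libraries, and 8 residual degrees of freedom in all). A gene was called at a Benjamini-Hochberg adjusted p below 0.05 over all genes tested and an absolute log2 fold change above 0.5. Log2 CPM used a prior count of 2. The 5 contrasts were LPS against PBS in each genotype, the difference between them, and genotype within each treatment. These share groups. Subunit log2 ratios were tested by exact permutation. Procedures were checked on simulated data. The 12 pairs of libraries within groups were compared, none held identical counts, and all differed by more than sampling noise. The labels do not say whether mice shared litters.

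The members and gene lists were chosen with earlier results of these data known. Named genes are all members, the genes of the pathway list that were called with values for up to 4 per role by mean CPM, and the 8 genes most alike to the members. Positions and exon lengths came from Gencode release M21, in which 99.72% of genes were found, and promoters from RefSeq. Alternatives were RLE size factors, DESeq2 1.42.0, limma-voom (limma 3.58.1), a test against 0.5, no filter, all annotated genes, fits of the compared groups alone, and libraries left out.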

Additional observations from a re-analysis of the deposited data

How the results depend on the processing

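No paired analysis was possible because the groups share no replicate number. RLE size factors, DESeq2, limma-voom, no filter and leaving out both Gm26917-rich libraries together kept the counts of called members at 2 or 3 in WT and 3 or 4 in Adm+/- lungs, the added member being Erap1 each time. A test against a log2 fold change of 0.5 left 0 members in both genotypes, and 3 and 10 genes of the wider list. Testing all annotated genes left 1 member in WT, B2m. With only the compared groups in the fit, 0 members and 3 listed genes were called in WT, and 5 members, adding Tap2 and Erap1, in Adm+/- lungs. Calls over all genes tested moved the same way, from 2791 to 1152 in WT and from 3968 to 4527 in Adm+/- lungs. DESeq2 called 2 listed genes, Ifnar2 and Jak2, between genotypes in LPS, where it called 803 of 15885 genes tested.

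With 1 library left out at a time, called members ranged from 0 (without WT LPS replicate 9) to 3 in WT, and from 1 to 7 (without Adm+/- PBS replicate 7) in Adm+/- lungs, with 5 without WT PBS replicate 5. Called genes of the wider list ranged from 7 to 11 in WT, and from 0 to 1 between genotypes in LPS. Some directions turned when a library was left out, none of the turned values passing the threshold. The log2 fold change ranged over -0.12 to 0.47 for Tap2 with LPS in WT and over -0.30 to 1.12 for Psmb9 in Adm+/- lungs. The difference between the responses ranged over -0.0153 to 0.73 for H2-K1, -0.0218 to 0.54 for H2-D1, -0.71 to 0.35 for B2m, -0.0209 to 1.29 for Tap1, -0.14 to 0.66 for Psmb8, -0.64 to 0.78 for Psmb9, -0.24 to 0.20 for Erap1 and -1.29 to 1.59 for Nlrc5. Genotype differences ranged over -0.28 to 0.77 for B2m, -0.59 to 0.72 for Tap1, -0.30 to 0.29 for Tap2, -0.0593 to 0.37 for Tapbp, -0.27 to 0.52 for Psmb8, -0.50 to 0.92 for Psmb9 and -0.80 to 2.08 for Nlrc5 in PBS and over -0.13 to 0.0629 for H2-K1 and -0.0402 to 0.15 for B2m in LPS. Of the subunit ratios, the LPS effect ranged over 0.67 to 1.02 for Psmb8/Psmb5, 0.37 to 0.93 for Psmb9/Psmb6 and 0.0392 to 0.56 for Psmb10/Psmb7, and its genotype difference over -0.0358 to 0.67, -0.41 to 0.70 and -0.19 to 0.85 for Psmb8/Psmb5, Psmb9/Psmb6 and Psmb10/Psmb7.

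Outside these, limma-voom turned Tap2 between genotypes in PBS to 0.0121. Leaving out both Gm26917-rich libraries turned Psmb9 with LPS in Adm+/- lungs to -0.14, the response differences of Tap1 to -0.0505 and of Psmb8 to -0.0289, Tap2 between genotypes in PBS to 0.23, and the genotype differences of Psmb9/Psmb6 to -0.12 and of Psmb10/Psmb7 to -0.0537. The cause was not tested. Every member had at least 152 counts in each library.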
